A study of Mus musculus with 6 samples.

Results

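The genes described here are 38 regulators and executors of apoptosis, namely p53 and its controllers, p53 target genes, the BCL2 family, death receptors and their adaptors, caspases and their inhibitors. They were taken by gene symbol from the 54532 genes of the deposited table, and each of the 38 symbols was found on 1 row. The rule used no measured value, though the members were chosen with earlier results of these data known. RNA came from primary hepatocytes of C57BL/6 mice aged 32 to 34 weeks that had all received high-fat diet for 26 weeks. The 3 XCON libraries carried the Xbp1FL/FL genotype, in which both Xbp1 alleles are flanked by loxP sites and intact, and the 3 XCKO libraries carried Xbp1ΔHep, in which Xbp1 is deleted in hepatocytes. Sources used here do not give the Cre driver or the sex of the mice, and every library came from the high-fat diet. The title of the series names the role of XBP1, the factor made from spliced Xbp1 mRNA during ER stress, in non-alcoholic steatohepatitis.

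Apoptosis in hepatocytes can start at death receptors of the cell surface, such as FAS, which recruit FADD and caspase-8, or at mitochondria. In hepatocytes the receptor signal usually has to be amplified through mitochondria by cleavage of BID. BH3-only proteins sense damage or stress, BAX and BAK then permeabilize the outer mitochondrial membrane unless BCL-XL, MCL1 or BCL2 hold them back, and released cytochrome c assembles APAF1 and caspase-9 into the apoptosome. The transcription factor p53 drives many genes of both routes together with genes of cell cycle arrest, among them Mdm2, whose product marks p53 for degradation. Most of these proteins are also controlled by cleavage, phosphorylation and location, which RNA counts do not measure.

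Total counts per library were 23919355 to 26502456 for XCON and 26477489 to 27240079 for XCKO. The deleted gene, Xbp1, was at 171, 294 and 319 CPM (reads scaled to library size with TMM factors) in XCON 1, 2 and 3 and at 59, 39.3 and 67.4 CPM in XCKO 1, 2 and 3, so each library matched its label. The hepatocyte product albumin stood at 45346 CPM or more in every library. Mitochondrial transcripts took 22.8% of the counts in XCON 1 and 8.99% to 13.1% in the other libraries, and summed globin genes came to 18.6 CPM or less except for 329 in XCKO 1 and 825 in XCKO 3. Summed CPM of 7 macrophage markers ranged from 866 to 1660 in XCON and from 290 to 762 in XCKO, with 1 of the 7 past the test as lower, and that of 7 stellate markers from 234 to 533 and from 93.8 to 236, with 2 of 7 lower. Summed cell cycle genes ranged from 49.7 to 96.3 CPM in XCON and from 19.3 to 34.7 CPM in XCKO, with 2 of 6 lower. The 7 sinusoidal endothelial markers ranged from 430 to 443 CPM and from 326 to 703 CPM, the 6 cholangiocyte markers (5 of them tested) from 251 to 583 and from 82.5 to 162 CPM, and the 7 hepatocyte markers from 59500 to 80300 and from 80200 to 111000 CPM. Spp1 made up most of the cholangiocyte sum, at 563, 227 and 245 CPM in XCON and at 76.7, 76.3 and 157 CPM in XCKO. Krt19, Sox9, Epcam and Cftr of that list had overlapping groups, and Krt7 was low in all libraries and lower in XCKO without overlap. No endothelial, cholangiocyte or hepatocyte marker passed, and none of these lists had a marker at 0 in all libraries. The differences in mean log2 level were −1.18, −1.33, −1.25, 0, −1.51 and 0.44 for these 6 lists in the order named, each with a two-sided exact permutation p of 0.1, the smallest that 3 against 3 can give, except endothelial markers with an exact p of 1. The T and NK cell, B cell, neutrophil and erythroid lists differed by −1.23, −0.62, 0.15 and 2.92. Their exact permutation p were 0.3, 0.6, 0.9 and 0.2. In bulk RNA, fewer cells of a type and less RNA per cell cannot be told apart. The part of other cell types in the results below was not tested.

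Most of the apoptosis and p53 genes did not pass the test between the groups. Of the 38, 37 passed edgeR's filter on low counts and were tested, 1 rose in XCKO, 3 fell and 33 did not pass an adjusted p of 0.05. Mdm2, Phlda3 and Casp8 fell and Bad rose. The 4 calls are 10.8% of the tested members, near the 9.27% called among all 14873 genes tested (5.21% higher and 4.05% lower). At an unadjusted p under 0.05 there were 14 members, 37.8%, against 29.7% of all genes. The groups of 3 libraries did not overlap in 17 members, 45.9%, of which 12 had XCKO below and 5 had XCKO above, against 35.7% of all genes (18.1% below, 17.6% above). The median log2 fold change (XCKO minus XCON) was −0.31 over the tested members and −0.05 over all genes, and 24 of 37 members (64.9%) had a value below 0 against 53.5% of all genes. Over fits that each left out 1 library, the members' median lay between −0.35 and −0.15, the value without XCON 3. Expression differences in these libraries also followed gene length, and offsets that remove this trend gave a median of −0.18 for the members and −0.02 for all genes.

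**Figure D1:**
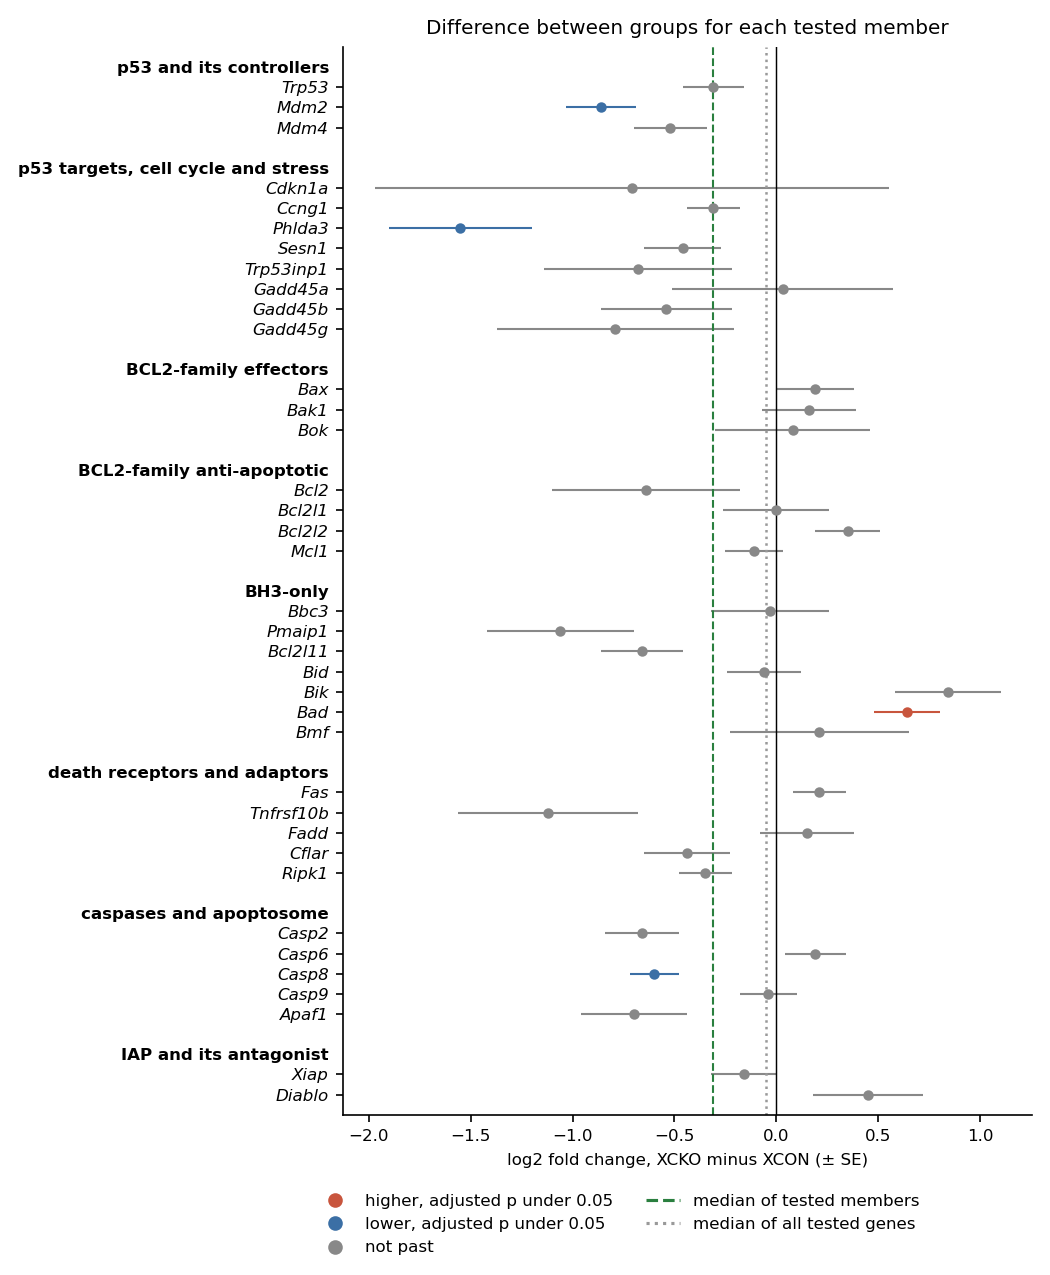
Log2 fold change (XCKO minus XCON, x axis) of the 37 tested members grouped by role, with points for the estimate and bars for its SE. The SE is that of edgeR's test with 3 libraries per group, not the scatter of a gene's own libraries alone. Blue points (Mdm2, Phlda3, Casp8) passed as lower and the red point (Bad) as higher, the dashed line marks the members' median of −0.31 and the dotted line the median of −0.05 over all tested genes.

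Each of the 4 calls was lost in at least 4 of the 6 fits with a library left out. Mdm2 passed in 2 of the 6, without XCON 2 (adjusted p = 0.04) or XCKO 2 (0.025), while its adjusted p rose as high as 0.079 when XCKO 3 was dropped. Phlda3, Casp8 and Bad passed in none of the 6, with adjusted p from edgeR's quasi-likelihood test between 0.052 and 0.093, 0.061 and 0.072, and 0.063 and 0.11. The log2 fold changes themselves moved little in these fits, from −0.97 to −0.74 for Mdm2, −1.72 to −1.28 for Phlda3, −0.62 to −0.56 for Casp8 and 0.61 to 0.71 for Bad. The number of genes called in the whole table fell in the same fits, from 1378 to between 309 and 810. In the authors' deposited table, made with a tool that is not recorded here, 6 of 38 members had an adjusted p under 0.05 (10.2% of its 24709 genes did). These were the same 4 genes in the same direction together with Bik (log2 fold change 0.88, adjusted p 0.024) and Casp2 (−0.63, 0.047).

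The p53 gene and both of its controllers were lower on average in XCKO, with Mdm2 past the test. Mdm2 (ENSMUSG00000020184, mm10 chromosome 10, 117688875 to 117710758, minus strand), the ubiquitin ligase of p53 and itself a p53 target, was at 58.3, 45.6 and 52.4 CPM in XCON 1, 2 and 3 and at 27, 34.7 and 24.3 CPM in XCKO 1, 2 and 3. All 3 XCKO libraries lay below the lowest XCON library. Mdm2 fell from 52.1 ± 6.4 to 28.7 ± 5.4 CPM (SD, n = 3), which is −0.86 ± 0.17 (SE) on the log2 scale (adjusted p = 0.023, edgeR quasi-likelihood test). Mdm4, which encodes the MDM2 partner that blocks p53's activation domain, was at 78.1, 73.3 and 79.7 CPM in XCON and at 59.1, 61.9 and 40 CPM in XCKO. Its groups did not overlap, but its log2 fold change of −0.52 ± 0.18 (SE) did not pass (adjusted p = 0.1 in edgeR) and was −0.26 with the length offsets. Its gene model is one of the longest among the members, at 14798 bases. Trp53 itself, which encodes p53, was at 24, 23.9 and 18.9 CPM in XCON and at 17.5, 18.9 and 17.5 CPM in XCKO. XCKO was below without overlap, though XCON 3 and XCKO 2 both round to 18.9 CPM, and the log2 fold change of −0.31 ± 0.15 (SE) did not pass (adjusted p = 0.19).

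Of 8 genes that p53 or cellular stress induces, 1 fell, 0 rose and 7 did not pass. A log2 fold change below 0 was seen in 7 of the 8, against 53.5% of all genes. Their median was −0.61, against −0.05 over all genes. Phlda3 (ENSMUSG00000041801, chromosome 1, 135766119 to 135769136, plus strand), a p53 target whose product opposes AKT at the membrane, was at 4.58, 3.12 and 3.79 CPM in XCON and at 1.62, 1.47 and 0.821 CPM in XCKO. It was low in every library, and every XCKO library had less than any XCON library. Phlda3 fell from 3.83 ± 0.73 to 1.31 ± 0.43 CPM (SD, n = 3), which is −1.55 ± 0.35 (SE) on the log2 scale (adjusted p = 0.031 in edgeR), the largest difference among the tested members. Ccng1, which encodes cyclin G1, was at 44.8, 38.6 and 43 CPM in XCON and at 35.9, 33.2 and 32.5 CPM in XCKO. The groups did not overlap, and its log2 fold change of −0.31 ± 0.13 (SE) did not pass (adjusted p = 0.15). Sesn1, a stress-induced brake on mTORC1, had 14.6 ± 2.1 CPM in XCON and 10.6 ± 1.9 CPM in XCKO (SD, n = 3), with XCKO 3 inside the XCON range, and did not pass either (adjusted p = 0.14).

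Promoter sequence was at hand in RefSeq windows of GRCm38.p6 that run from 250 bases before to 50 bases after a start, for 34 of the 38 genes (48 windows). The windows of the 2 p53 targets that fell, and of the member that rose, are shown because these are the members past the test for which the start of a window lies at, or 34 bases from, the listed gene start. Positions count from the start base as 0, and capitals mark a p53 half-site, CCAAT or GGGCGG on either strand.
Mdm2 (chr10:117710709-117711008, minus strand): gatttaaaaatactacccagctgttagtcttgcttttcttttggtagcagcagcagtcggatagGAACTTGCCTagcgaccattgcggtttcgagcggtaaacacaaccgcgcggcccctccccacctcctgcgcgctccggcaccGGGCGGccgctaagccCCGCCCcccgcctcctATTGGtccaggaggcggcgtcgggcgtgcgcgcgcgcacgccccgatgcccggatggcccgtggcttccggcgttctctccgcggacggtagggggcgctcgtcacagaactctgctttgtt
Phlda3 (chr1:135765835-135766134, plus strand): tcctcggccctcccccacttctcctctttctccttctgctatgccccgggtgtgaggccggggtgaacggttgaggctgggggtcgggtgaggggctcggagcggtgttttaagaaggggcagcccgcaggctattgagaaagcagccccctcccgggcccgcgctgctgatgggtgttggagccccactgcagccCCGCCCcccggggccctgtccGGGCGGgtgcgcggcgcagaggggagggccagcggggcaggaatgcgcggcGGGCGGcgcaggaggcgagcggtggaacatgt
Bad (chr19:6941611-6941910, plus strand): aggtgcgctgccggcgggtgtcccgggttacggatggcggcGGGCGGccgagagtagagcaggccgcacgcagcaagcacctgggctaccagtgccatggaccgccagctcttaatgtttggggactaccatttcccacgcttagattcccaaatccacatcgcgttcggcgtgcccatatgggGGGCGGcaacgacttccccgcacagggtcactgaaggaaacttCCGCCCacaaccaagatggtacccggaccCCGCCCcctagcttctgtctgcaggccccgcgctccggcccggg
In the Mdm2 window a p53 half-site begins at −186 from the start, GGGCGG at −104 and −88 and CCAAT at −72. All matches are of letters alone, and binding of p53 to any of them was not tested. Sequence outside the windows, such as introns, was not searched. The Phlda3 window holds GGGCGG at −54, −33 and 18 and the Bad window at −209, −66, −23 and 6, and neither of these windows holds a p53 half-site or CCAAT. Bad has 2 windows in the table, and the one not shown holds CCAAT. A p53 half-site was found in windows of 8 member genes (Bax, Bmf, Ccng1, Cdkn1a, Gadd45a, Mdm2, Sesn1 and Trp53), 8 of 48 windows, against 8.36% of all 32851 windows of this length. GGGCGG occurred in 32 of the 48 windows and in 35.7% of all windows, and CCAAT in 17 of 48 and in 37.4% of all. The ER stress motif TGACGTG, which XBP1 can bind, was found in the windows of 1 member, Xiap, and in 2.01% of all windows, and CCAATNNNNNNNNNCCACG in 0 of the 48 and in 0.119% of all. A CCAAT within that last motif would also count as a CCAAT match.

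Cdkn1a, which encodes the cell cycle inhibitor p21 and is the best known p53 target, differed far more between libraries of a group than between the groups. It was at 65.9, 18.8 and 103 CPM in XCON and at 99.2, 7.06 and 8.65 CPM in XCKO. XCKO 1 stood with XCON 1 and 3, while XCKO 2 and 3 were lower than any XCON library. The highest library held 14.6 times the CPM of the lowest, and the within-group SD of log2 CPM was 1.74, larger than that of 99.7% of tested genes. Its log2 fold change was −0.71 ± 1.26 (SE, adjusted p = 0.75 in edgeR). It moved to −2.98 (adjusted p = 0.1) without XCKO 1, to −1.14 without XCON 2, and to −0.14, −0.19 and −0.22 without XCON 3, XCKO 2 and XCKO 3, and passed in none of the 6 fits with a library left out. Of the other 7 genes of this role, Gadd45g, Gadd45a and Trp53inp1 also spread widely, whereas the SD was 0.23 for Sesn1 and 0.10 for Ccng1. Gadd45g, a stress sensor gene that is abundant in liver, was at 108, 41.4 and 177 CPM in XCON and at 65.9, 31.2 and 90.6 CPM in XCKO, and its SD of 0.94 lay at percentile 95.5 of all genes. Gadd45a was at 5.5, 8.03 and 25.6 CPM in XCON and at 11.5, 12.5 and 16 CPM in XCKO (SD 0.83, percentile 93.3). Trp53inp1, a p53-induced gene of autophagy and cell death, was at 192, 70.4 and 173 CPM in XCON and at 95.1, 129 and 47.1 CPM in XCKO (SD 0.77, percentile 91.5). In all 3 genes the groups overlapped and none passed. Which libraries were high differed between these genes, since XCON 3 led for Cdkn1a, Gadd45a and Gadd45g but XCON 1 for Trp53inp1. Gadd45b had 4.86 ± 1.4 CPM in XCON and 3.34 ± 0.95 CPM in XCKO (SD, n = 3) and did not pass. The median within-group SD was 0.61 over these 8 genes and 0.28 over all tested genes.

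**Figure D2:**
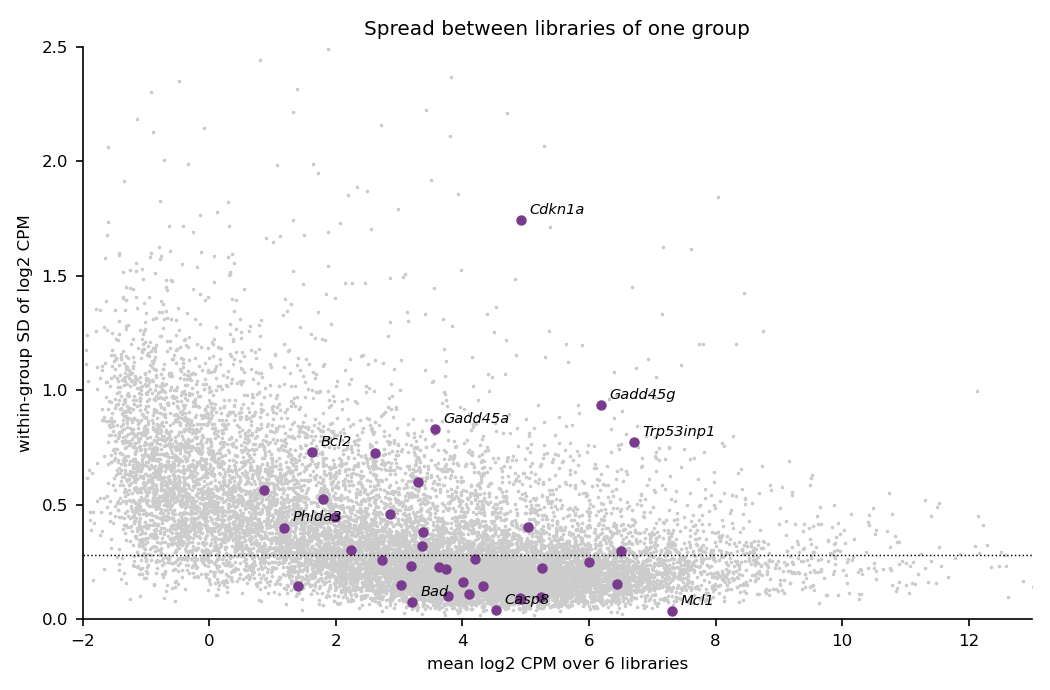
Within-group SD of log2 CPM (y axis) against mean log2 CPM over the 6 libraries (x axis) for all tested genes in grey and the members in purple, with the dotted line at the median SD of 0.28. Cdkn1a lies at 1.74, whereas Casp8 and Mcl1 lie at 0.04 and 0.03 near the lower edge. The axes leave out 13 genes with an SD above 2.5 and 18 genes beyond the ends of the x axis.

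None of the 3 effectors or 4 anti-apoptotic members of the BCL2 family passed. Bax, which encodes the pore former BAX, was at 22, 15.2 and 14.9 CPM in XCON and at 21.7, 17 and 20.8 CPM in XCKO, with overlapping groups and a log2 fold change of 0.19 ± 0.19 (SE). The other 2 effectors also had overlapping groups. Bak1 had 9.85 ± 2.7 and 11 ± 1.7 CPM (SD, n = 3) in XCON and XCKO and Bok had 10.1 ± 2.5 and 10.7 ± 5.9 CPM. Their log2 fold changes were 0.16 ± 0.23 and 0.08 ± 0.38 (SE). Exons of Bak1 share 437 bases with Ggnbp1 on the opposite strand, so its counts are uncertain. The log2 fold changes of all 3 effectors turned negative under scaling by library totals alone, at −0.08, −0.11 and −0.20. That scaling moved the median of all genes from −0.05 to −0.31. Mcl1, an anti-apoptotic gene that hepatocytes are known to need, was the member with the steadiest level, at 171, 163 and 163 CPM in XCON and at 155, 155 and 150 CPM in XCKO. Its groups did not overlap, yet the difference of −0.11 ± 0.14 (SE) did not pass (adjusted p = 0.64), and its within-group SD of 0.03 lay at percentile 0.1 of all genes. Bcl2l1, which encodes BCL-XL, had 33.4 ± 10 CPM in XCON and 33.5 ± 8.8 CPM in XCKO (SD, n = 3). Bcl2l2, which encodes BCL-W, was at 14, 15.8 and 13.2 CPM in XCON and at 18.6, 20.3 and 15.8 CPM in XCKO, a difference of 0.35 ± 0.16 (SE) in log2 units (adjusted p = 0.17). Exons of Bcl2l2 share 594 bases with Gm20521 on the same strand, which had 0 reads, so the counts of Bcl2l2 are uncertain. Bcl2 itself was low, at 4.06 ± 1.5 and 2.61 ± 1.4 CPM (SD, n = 3), and did not pass. Per length, in the authors' FPKM averaged over 6 libraries, Mcl1 stood at 45.9, Bcl2l1 at 7.22, Bcl2l2 at 3.6 and Bcl2 at 0.359.

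**Figure D3:**
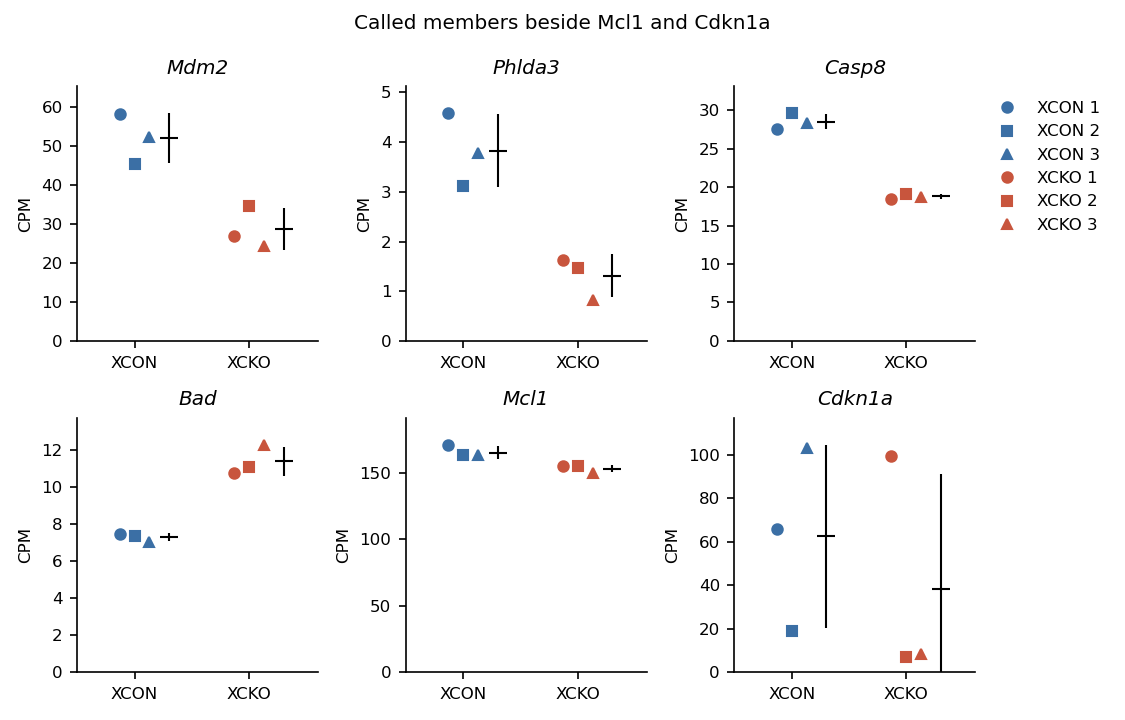
CPM (y axis, from 0) in each XCON and XCKO library of the 4 members past the test and of Mcl1 and Cdkn1a, with the mean and SD over 3 libraries in black beside the points. For Mdm2, Phlda3, Casp8, Bad and Mcl1 the groups do not overlap, whereas Cdkn1a in XCKO 1 reaches 99.2 CPM, among the XCON values, and the lower end of its XCKO bar runs below 0 and is not drawn.

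Among 8 BH3-only genes, 1 rose, 0 fell, 6 did not pass and Hrk was not tested. Bad (ENSMUSG00000024959, chromosome 19, 6941861 to 6951898, plus strand), whose product binds BCL-XL until survival kinases phosphorylate it, was at 7.5, 7.37 and 7.07 CPM in XCON and at 10.8, 11.1 and 12.3 CPM in XCKO. Libraries within a group differed little, and every XCKO library lay above every XCON library. Bad rose from 7.31 ± 0.22 to 11.4 ± 0.77 CPM (SD, n = 3), which is 0.64 ± 0.16 (SE) on the log2 scale (adjusted p = 0.042 in edgeR). The call was lost with the length offsets (log2 fold change 0.50, adjusted p = 0.073) and under scaling by library totals alone (0.37, 0.15). Exons of Bad share 524 bases with those of Gpr137 on the opposite strand. Sources used here do not say whether counting was stranded, so reads of the 2 genes may not be told apart. Gpr137 had 19.2 ± 2.3 CPM in XCON and 22.8 ± 1.9 CPM in XCKO (SD, n = 3), and its difference of 0.25 ± 0.15 (SE) in log2 units did not pass. Bik, a BH3-only gene of the ER membrane, was at 3.92, 4.22 and 2.43 CPM in XCON and at 5.87, 6.56 and 6.44 CPM in XCKO. It did not pass in edgeR (0.84 ± 0.26, SE, adjusted p = 0.075), although its groups did not overlap, and it passed in DESeq2 (adjusted p = 0.022).

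The BH3-only genes with values below 0 included both p53-linked and stress-linked members. Bcl2l11, which encodes BIM, an activator of BAX that ER stress can induce, was at 13.9, 11.3 and 9.43 CPM in XCON and at 8.01, 6.29 and 7.57 CPM in XCKO. The groups did not overlap and the log2 fold change of −0.66 ± 0.20 (SE) did not pass (adjusted p = 0.071). Pmaip1, which encodes the MCL1 antagonist NOXA, was at 3.85, 5.35 and 6.09 CPM in XCON and at 2.87, 1.32 and 3.16 CPM in XCKO, a difference of −1.06 ± 0.36 (SE) in log2 units (adjusted p = 0.092 in edgeR) and 0.047 in DESeq2. Bbc3, which encodes the p53 target PUMA, differed little, at 7.46 ± 1.1 and 7.31 ± 2.7 CPM (SD, n = 3), as did Bid at 13.7 ± 2 and 13.1 ± 2 CPM. Exons of Bid share 628 bases with Bcl2l13 on the opposite strand, so its counts are uncertain. Bmf had 6.06 ± 1.5 and 7.02 ± 3.9 CPM (SD, n = 3). Hrk, a neuronal BH3-only gene, had 1, 0 and 0 reads in XCON and 5, 6 and 0 reads in XCKO, and no difference was detectable at this depth.

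**Figure D4:**
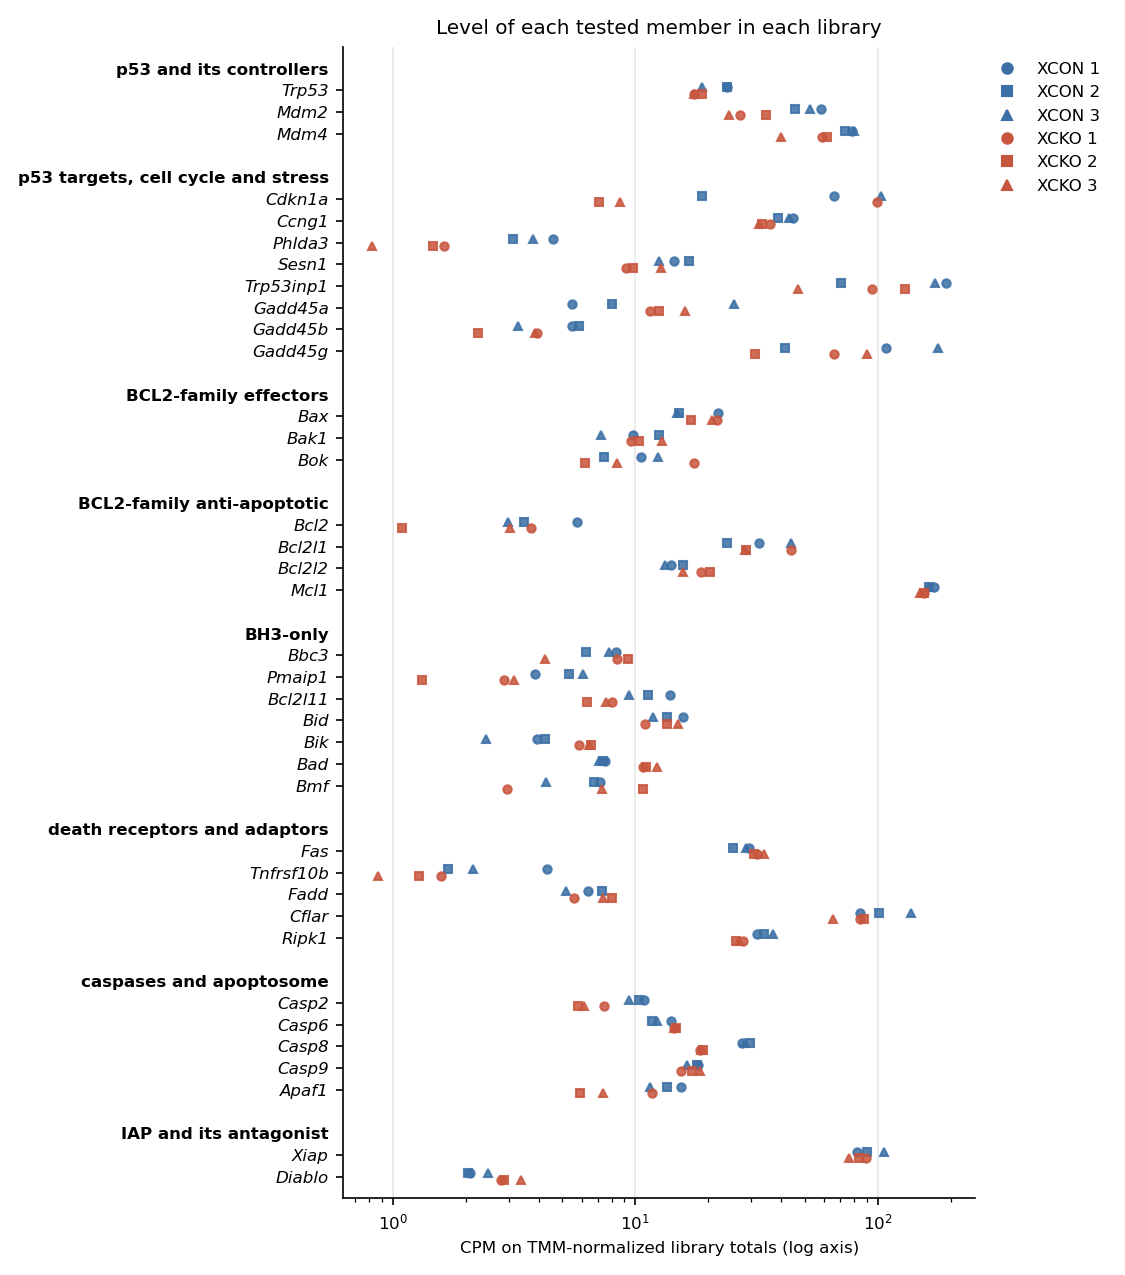
CPM of each tested member in each library (x axis, log scale), grouped by role, with XCON in blue above XCKO in red and marker shapes for replicates 1 to 3. Mcl1 and Casp8 have tight points, whereas Cdkn1a spans 14.6-fold.

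Of 5 death receptor and adaptor genes none passed in edgeR, and 2 had an unadjusted p under 0.05. Fas, which encodes a death receptor to which hepatocytes are known to be sensitive, was at 29.5, 25.4 and 28.5 CPM in XCON and at 31.7, 30.9 and 34 CPM in XCKO. The groups did not overlap, but the difference of 0.21 ± 0.13 (SE) did not pass (adjusted p = 0.32) and was −0.06 under scaling by library totals. Tnfrsf10b, which encodes the TRAIL death receptor, was low at 4.31, 1.69 and 2.13 CPM in XCON and 1.58, 1.28 and 0.865 CPM in XCKO, a difference of −1.12 ± 0.44 (SE) in log2 units (adjusted p = 0.13). XCON 1 was highest and XCKO 3 lowest. Ripk1, a kinase that relays receptor signals to survival or death, was at 31.9, 34 and 37.1 CPM in XCON and at 27.9, 25.9 and 26.9 CPM in XCKO, without overlap (−0.35 ± 0.13, SE, adjusted p = 0.11). Its exons share 241 bases with Serpinb6a on the opposite strand, which was at 32.8 ± 5.9 and 20.2 ± 8.6 CPM (SD, n = 3). Cflar, which encodes the caspase-8 inhibitor c-FLIP, had 108 ± 27 CPM in XCON and 79.3 ± 12 CPM in XCKO (SD, n = 3), with XCON 3 highest at 137 CPM (adjusted p = 0.19). The adaptor gene Fadd had 6.29 ± 1.1 and 6.98 ± 1.2 CPM (SD, n = 3).

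Among 5 caspase and apoptosome genes, 1 fell and 4 did not pass. Casp8 (ENSMUSG00000026029, chromosome 1, 58795374 to 58847503, plus strand), the initiator caspase of death receptors, was at 27.6, 29.6 and 28.4 CPM in XCON and at 18.5, 19.1 and 18.7 CPM in XCKO. The 2 groups stood well apart, with a within-group SD of log2 CPM of 0.04, at percentile 0.1 of all genes. Casp8 fell from 28.5 ± 1 to 18.8 ± 0.28 CPM (SD, n = 3), which is 1.52-fold or −0.60 ± 0.12 (SE) on the log2 scale (adjusted p = 0.024 in edgeR). Casp2, an initiator caspase that p53's target PIDD1 can activate, was at 10.9, 10.4 and 9.43 CPM in XCON and at 7.41, 5.82 and 6.14 CPM in XCKO. Its groups did not overlap, and its log2 fold change of −0.66 ± 0.18 (SE) missed the threshold (adjusted p = 0.054 in edgeR, 0.029 in DESeq2). Apaf1, the scaffold of the apoptosome, was at 15.4, 13.5 and 11.5 CPM in XCON and at 11.7, 5.9 and 7.35 CPM in XCKO (−0.70 ± 0.26, SE, adjusted p = 0.11). XCKO 1 lay inside the XCON range, and without that library Apaf1 passed (−1.01, adjusted p = 0.045). Casp9, the apoptosome's caspase, had 17.5 ± 1 and 17 ± 1.5 CPM (SD, n = 3), and the executioner gene Casp6 had 12.7 ± 1.3 and 14.5 ± 0.19 CPM, neither past the test.

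Neither Xiap nor Diablo, an inhibitor of caspases and the mitochondrial protein that relieves it, passed. Xiap had 92.7 ± 12 CPM in XCON and 83 ± 6.8 CPM in XCKO (SD, n = 3) with overlapping groups. Diablo was at 2.08, 2.05 and 2.47 CPM in XCON and at 2.79, 2.87 and 3.37 CPM in XCKO, without overlap and with a log2 fold change of 0.45 ± 0.27 (SE, adjusted p = 0.3). Its exons share 1193 bases with the gene model Gm49027 on the same strand, so its counts are uncertain. In all, exons of 12 of the 38 members overlap those of another gene.

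Of 70 further genes of the same pathways, 63 were tested in edgeR. There 3 rose, 2 fell and 58 did not pass, which is 7.94% called beside 9.27% of all genes. Their median log2 fold change was −0.07. In the authors' deposited values 13 of 67 of these genes had an adjusted p under 0.05, beside 10.2% of all genes there. The 7 higher were Cycs, Aifm1, Endog, Bnip3, Tmbim6, Perp and Ei24, and the 6 lower were Casp12, Birc3, Birc5, Tnf, Plk3 and Gdf15. Perp, Ei24, Plk3 and Gdf15 did not pass in edgeR, with log2 fold changes of 0.49, 0.55, −1.33 and −0.67. DESeq2 called 7 higher and 7 lower, beside 2653 of all 14873 genes. Casp12, a caspase of the ER membrane, was at 8, 5.5 and 7.95 CPM in XCON and at 1.34, 1.94 and 1.95 CPM in XCKO. The groups lay far apart. Casp12 fell by 2.04 on the log2 scale (SE 0.28, adjusted p = 0.0089 in edgeR) and passed in all 6 fits without 1 library (largest adjusted p 0.038). Birc3, which encodes the ubiquitin ligase cIAP2 that acts in TNF receptor signalling, was at 32.1, 21.4 and 20 CPM in XCON and at 13.8, 13.6 and 14.7 CPM in XCKO (−0.80 ± 0.19, SE, adjusted p = 0.037). The 3 genes that rose in edgeR encode mitochondrial proteins. Cytochrome c, encoded by Cycs, was at 42.9, 32 and 45.3 CPM in XCON and at 65, 60.2 and 82.5 CPM in XCKO (0.79 ± 0.19, SE, adjusted p = 0.035).

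Aifm1, which encodes the flavoprotein AIF of the intermembrane space, was at 70.3, 74.9 and 76.3 CPM in XCON and at 117, 121 and 129 CPM in XCKO (0.73 ± 0.14, SE, adjusted p = 0.021). Bnip3, a gene of mitophagy, was at 47.7, 60.4 and 45.5 CPM in XCON and at 86.6, 80.5 and 109 CPM in XCKO (0.84 ± 0.18, SE, adjusted p = 0.026). In each of these 3 genes all XCKO libraries were above all XCON libraries. With 1 library left out, Birc3 passed in 0 of 6 fits, Cycs in 1, Bnip3 in 2 and Aifm1 in 3, and their largest adjusted p were 0.096, 0.099, 0.078 and 0.061. Plk3, Btg2 and Ddit3, stress-induced genes chosen after their values were seen, were highest in XCON 3 like Cdkn1a. They were there at 325, 249 and 24.2 CPM, against at most 169, 120 and 18.9 CPM in the other libraries. Others of the further genes peaked elsewhere, among them Plk2 in XCON 1 (32.7 CPM), Trib3 and Trp53i11 in XCKO 1 (6.68 and 35.1 CPM) and Sesn2 in XCKO 2 (15 CPM). Plk3, Btg2 and Ddit3 did not pass in edgeR, though Plk3 was lower in the authors' deposited values (log2 fold change −1.3, adjusted p 0.0085).

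**Figure D5:**
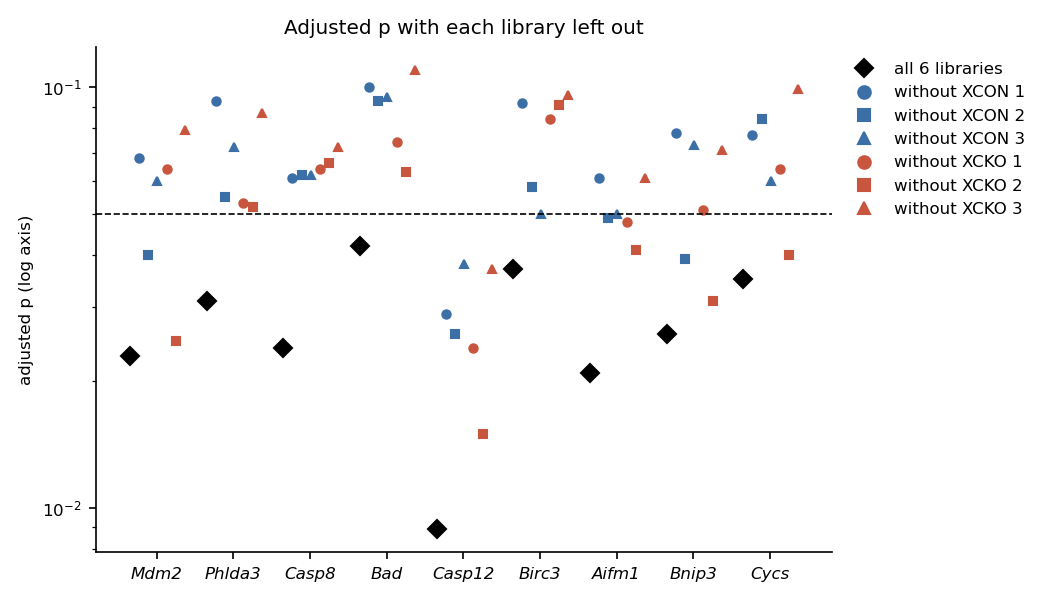
Adjusted p from edgeR's quasi-likelihood test (y axis, log scale) for the 4 members and 5 other pathway genes past the test, with all 6 libraries (black diamonds) and with each library left out (coloured points). The dashed line is 0.05, and Casp12 is the one gene of the 9 that stays below it in all 6 fits, with its highest point at 0.038.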

How the data were processed

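One deposited table lists raw counts for each Ensembl gene in all 6 libraries, per the file headers, and the main test used them. The authors' deposited FPKM values equal the count divided by the listed gene length and by a library size of 22746351 to 29755368, which differs from the count totals. Deposited group means (signal, as scaled counts) were left aside. The authors' deposited log2 fold changes and p-values were made with a tool that no source used here names. Per the submitters' processing notes, Bowtie 0.12.2 was used, and mm8 as well as mm10 are listed as builds without a role. Listed coordinates equalled GENCODE M21 (mm10) for 35 of 38 members, the exceptions being Pmaip1, Bad and Fas.

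Of 54532 genes, 14873 passed edgeR's filterByExpr. They were scaled by TMM and tested by quasi-likelihood in edgeR 4.0.16 (R 4.3.3, robust) on group alone, with Benjamini-Hochberg adjustment over all of them and a threshold of 0.05. An SE is the size of the log2 difference over the root of its F statistic. Log2 CPM used a prior count of 2. The scripts were tested on simulated data. Samples were grouped by title. No label of a sample names a mouse, so the spread behind the p-values is that of the libraries and may be technical. The biological coefficient of variation was 25.8%. The members and lists were chosen with earlier results of these data known. All members are named by role, those past the threshold or leading their role with every library, and each further pathway gene past the threshold. Where Ddit3 was on 2 rows, the row with reads was used.

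Alternatives were median-of-ratios size factors, library totals alone, no filter, 5 CPM in 3 libraries, a replicate block, each library left out, DESeq2 1.42.0, limma-voom (limma 3.58.1), limma on log2(FPKM + 1) and log2(FPKM + 0.1) for genes reaching 1 FPKM in 3 libraries, and offsets from a lowess fit on gene length. Leaving out both globin-rich XCKO libraries, or mitochondrial genes, was added after seeing the data.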

Additional observations from a re-analysis of the deposited data

How the results depend on the processing

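Below, the counts are members higher and lower, other pathway genes higher and lower, and all genes past the threshold, which were 1, 3, 3, 2 and 1378 as reported. Scaling by library totals alone gave 0, 12, 1, 8 and 2358 with a members' median of −0.57 (−0.31 over all genes). It turned Gadd45a to −0.26, Bax −0.08, Bak1 −0.11, Bok −0.20, Bcl2l1 −0.27, Bmf −0.03, Fas −0.06, Fadd −0.11 and Casp6 −0.07. No filter gave 2, 5, 4, 6 and 2160 (median −0.21), over 26604 genes. The filter of 5 CPM kept 31 members, left Phlda3 untested and had Casp2 pass as lower (adjusted p = 0.039 in edgeR). It gave a median of −0.17 and turned Gadd45a to −0.02 and Bcl2l1 to −0.05. DESeq2 gave 2, 5, 7, 7 and 2653. Voom turned Bok to −0.04. Limma on FPKM gave 2, 3, 5, 1 and 1225 with pseudocount 1 (median −0.16) and 2, 3, 4, 1 and 1132 with 0.1 (median −0.19). Length offsets gave 0, 3, 4, 1 and 1087 (median −0.18) and turned Gadd45a to −0.17, Bok −0.07, Casp9 0.03 and Xiap 0.03. Leaving out XCKO 1 and 3 together gave 0, 0, 0, 1 and 679 (median −0.21), with Mdm2 at −0.56 (adjusted p = 0.26 in edgeR) and the lone XCKO library assumed to vary like the XCON ones. It turned Gadd45a to −0.05, Bax −0.01, Bok −0.68, Bcl2l1 −0.21, Bbc3 0.34 and Bid 0. Casp12 passed in all 12 of these alternatives, with the replicate block among them (largest adjusted p 0.043). Causes of these shifts were not tested. Size factors and the removal of mitochondrial genes kept the counts of members and other genes.

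With 1 library left out, members higher came to 0 in each fit, members lower ranged from 0 to 1, other genes higher from 0 to 3 and lower from 1 to 2, all genes from 309 (without XCKO 3) to 810, and the members' median from −0.35 to −0.15. Directions turned for Gadd45a (range −0.33 to 0.98), Bcl2l1 (−0.23 to 0.26), Bok (−0.46 to 0.39), Bbc3 (−0.20 to 0.26), Bid (−0.15 to 0.06), Casp9 (−0.08 to 0.03), Bak1 (−0.01 to 0.38) and Bmf (−0.19 to 0.59).

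A replicate block gave 0, 0, 0, 1 and 322, turned Bok to −0.03 and put Mdm2 at −0.87 (adjusted p = 0.066 in edgeR). Samples with the same number deviated from their group means with correlations of 0.06, 0.08 and −0.17, so the numbers were not taken as a pairing. With 3 libraries per group, the biological coefficient of variation was 25.8%. With 1 library left out, Phlda3, Casp8 and Bad passed in 0 of 6 fits, whichever library was dropped, and Mdm2 passed in 2. Each of those fits also had fewer libraries, and the cause of the lost calls was not tested. The members with the largest SEs are Cdkn1a (1.26), Gadd45g (0.58) and Gadd45a (0.54).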
